A study of Mus musculus with 37 samples.

Results

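Clca1, Muc13, Cxcl15, Itih2 and Sprr1a are 5 mouse genes with high signal in mammary glands taken at oestrus and low signal in glands taken later in pregnancy. They were chosen by that fall in these same arrays, from probe sets annotated to exactly 1 gene symbol, so the fall itself is described here and not tested. They are 5 of 19937 genes with such a probe set, each had 1 probe set, and all 5 were among the 16865 genes tested. The test took genes with a log2 intensity above 4.96, the table's 25th percentile, on 3 or more arrays. By the mean of days 3 to 15 minus P0, averaged over both genotypes, the falls ranked 2 for Clca1, 7 for Muc13, 11 for Itih2, 12 for Cxcl15 and 16 for Sprr1a among the tested genes. In KO alone the ranks were 2, 6, 11, 9 and 10 in the same order, and in WT alone 2, 21, 18, 56 and 107, so Muc13, Cxcl15 and Sprr1a ranked much higher in KO than in WT glands.

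The 37 arrays measured total RNA of mammary glands from FVB mice, with 19 arrays of PTP1B knockouts (KO, PTP1B -/-, backcrossed to FVB for at least 7 generations) and 18 of wild types (WT, PTP1B +/+). PTP1B, encoded by Ptpn1, is a tyrosine phosphatase of insulin, leptin and prolactin signalling that dephosphorylates JAK2. At P0 the females were nulliparous and in oestrus, scored by a vaginal plug after a night with a male, and the other stages were days 3, 7, 10 and 15 of pregnancy (P3 to P15) in females mated at 12 weeks of age. No nulliparous gland outside oestrus was measured, so oestrus and the nulliparous state cannot be told apart. From P0 to P15 the KO groups held 4, 3, 5, 3 and 4 arrays and the WT groups held 4, 3, 4, 3 and 4. The labels do not say whether replicates came from separate animals, so p values measure the spread between these arrays, which may be technical. In RNA of a whole gland, fewer cells of a type and less RNA per cell cannot be told apart. All levels are log2 intensities, and levels of different probe sets are not compared with each other.

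Ptpn1 itself lay between 5.36 and 6.49 in 18 KO arrays and between 7.90 and 9.06 in the 18 WT arrays, while the array labelled KO P15 replicate 3 read 8.68. Together 7 arrays stood apart, called the arrays in doubt below. They were muscle-rich (WT P0 replicate 4, with a skeletal muscle score of 4.95, KO P3 replicate 1 and KO P7 replicate 3), lymphocyte-rich (KO P10 replicates 2 and 3 and WT P7 replicate 1) or that last array. Every comparison keeps them under their labels unless said otherwise.

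The virgin gland is a branched epithelial tree in fat that is exposed to ovarian oestrogen and progesterone in each oestrous cycle, and a cycle's epithelial growth largely regresses without pregnancy. In pregnancy, progesterone and prolactin drive side branching and then the growth of milk-forming alveoli. Of the 5 genes, Clca1, Muc13, Cxcl15 and Itih2 encode secreted or surface proteins. Clca1 (formerly Clca3 or gob-5) encodes a secreted protein of goblet cells that modulates calcium-activated chloride channels, and Muc13 a transmembrane mucin of the apical cell surface. Cxcl15, or lungkine, is a neutrophil-attracting chemokine known from mouse lung epithelium. Itih2 encodes a heavy chain of inter-alpha-trypsin inhibitor, a serum protein whose heavy chains are transferred to hyaluronan in the matrix. Sprr1a encodes a small proline-rich protein that transglutaminases cross-link into the cornified envelope of squamous epithelia, and it is also induced in stressed or injured cells.

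Because the 5 genes were all high at P0, Itih2 and Cxcl15 also at P3, the sequences around their start sites are shown. RefSeq windows on GRCm38.p6, from 250 bases before to 50 bases after a start, were matched for 4 of the 5 genes, all but Clca1. Capitals mark letters that match an oestrogen response element half-site (GGTCA or TGACC), an AP-1 site (TGACTCA or TGAGTCA), a progesterone receptor half-site (TGTTCT or AGAACA) or a TATA box (TATAAA or TTTATA), each searched on both strands. The Muc13 window, the first of its 2, lies at chr16:33793787-33794086 on the plus strand. The Cxcl15 window lies at chr5:90794284-90794583 on the plus strand. The Itih2 window lies at chr2:10130634-10130933 on the minus strand. The Sprr1a window lies at chr3:92485832-92486131 on the minus strand.
Muc13: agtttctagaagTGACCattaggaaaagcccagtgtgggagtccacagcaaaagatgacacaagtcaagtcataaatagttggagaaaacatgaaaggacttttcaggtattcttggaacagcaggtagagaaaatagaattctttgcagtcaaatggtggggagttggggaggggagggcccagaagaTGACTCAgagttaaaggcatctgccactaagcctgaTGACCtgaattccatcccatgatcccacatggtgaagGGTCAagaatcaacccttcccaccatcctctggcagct
Cxcl15: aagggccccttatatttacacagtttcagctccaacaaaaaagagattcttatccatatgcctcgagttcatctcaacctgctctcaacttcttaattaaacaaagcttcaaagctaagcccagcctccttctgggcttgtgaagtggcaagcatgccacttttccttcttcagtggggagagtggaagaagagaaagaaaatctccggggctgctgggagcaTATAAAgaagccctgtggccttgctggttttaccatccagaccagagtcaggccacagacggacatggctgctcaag
Itih2: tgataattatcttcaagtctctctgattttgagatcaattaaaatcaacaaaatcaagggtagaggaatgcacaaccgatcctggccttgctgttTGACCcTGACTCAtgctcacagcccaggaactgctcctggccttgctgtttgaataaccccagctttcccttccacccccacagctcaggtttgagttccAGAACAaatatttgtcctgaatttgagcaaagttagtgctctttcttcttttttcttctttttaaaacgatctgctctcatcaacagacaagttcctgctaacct
Sprr1a: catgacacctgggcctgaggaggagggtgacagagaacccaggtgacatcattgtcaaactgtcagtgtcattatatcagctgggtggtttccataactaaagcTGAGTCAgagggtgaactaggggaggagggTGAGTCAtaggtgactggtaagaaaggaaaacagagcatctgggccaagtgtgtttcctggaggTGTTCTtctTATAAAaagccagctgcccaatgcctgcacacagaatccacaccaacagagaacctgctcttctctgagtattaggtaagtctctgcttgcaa

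The AP-1 letters were present in the windows of Muc13, Itih2 and Sprr1a and absent from that of Cxcl15, and 5.2% of 32851 mouse windows of the same length hold them. Sprr1a had 2 such matches, at -146 and -116 (first base, counted from the start site, with -1 the base before it). Muc13 had 1 in each of its 2 windows, the one shown at -61. In Itih2 the AP-1 letters began at -149, with 1 base between them and an oestrogen half-site at -155. Oestrogen half-sites, found in 40.5% of windows, occurred 3 times in each Muc13 window and not in Cxcl15 or Sprr1a. A full palindromic oestrogen response element, found in 23 of the 32851 windows, was in none of the 5 windows. Progesterone receptor half-sites, in 19.0% of windows, stood at -55 in Itih2 and -52 in Sprr1a, and TATA letters, in 13.6%, at -27 in Cxcl15 and -43 in Sprr1a. These are matches of letters, and binding was not measured.

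Clca1 (probe set 10502622, chromosome 3) was high at P0 and low at every later stage in both genotypes. At P0 the 4 KO arrays read 10.40, 10.74, 10.20 and 9.57, and the 4 WT arrays 8.54, 10.97, 8.93 and 7.15. The KO arrays lay close together, while WT replicate 2 was the highest of all 37 arrays and WT replicate 4 the lowest at P0. At P3 the KO arrays read 6.02, 6.34 and 6.04, and the WT arrays 5.79, 6.11 and 5.87. The 3 later stages held 12 KO arrays between 5.28 and 6.17 and 11 WT arrays between 5.22 and 6.02. Already on day 3 the level stood at 5.86% of the P0 level in KO glands (log2 difference -4.09) and at 12.8% in WT glands (-2.97), on the linear scale of group means. No later group overlapped its P0 group. In KO glands a small further step followed between P7 and P10 (-0.64, no overlap). Among the 10 groups in order of level, 1 of 9 pairs of neighbours did not overlap, the step from WT P0 to KO P3.

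Muc13 (probe set 10435288, chromosome 16) followed the same early course. At P0 the KO arrays read 8.04, 9.55, 8.61 and 7.16, against 6.13, 6.80, 8.12 and 5.74 in WT arrays. On day 3 the KO arrays read 5.05, 5.12 and 5.17 and the WT arrays 4.68, 4.97 and 4.89, and all pregnancy arrays of either genotype lay between 4.66 and 5.25. The day 3 level was 10.7% of P0 in KO glands (-3.23) and 27.7% in WT glands (-1.85). In pregnancy Muc13 lay near the 25th percentile of the table: below it lay 3 of 5 KO and 3 of 4 WT arrays at P7, and 2 of 4 KO and 1 of 4 WT arrays at P15. Falls of Muc13 from P0 are therefore measured down to a dim signal, whereas the other 4 genes stayed above that value on all 37 arrays.

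Sprr1a (probe set 10499899, chromosome 3) stood higher in KO than in WT glands at P0 and was low in both by day 7. The KO arrays at P0 read 9.42, 9.46, 10.19 and 8.06, and the WT arrays 7.31, 8.15, 7.56 and 7.32. On day 3 the KO arrays read 6.39, 6.93 and 6.31, and the WT arrays 6.68, 7.39 and 6.62. The KO level was thus down by day 3 with no overlap with P0 (-2.74, 15.0% of P0), while the WT arrays of the 2 stages overlapped (-0.69, 62.1% of P0). From P7 on, KO arrays lay between 5.69 and 6.87 and WT arrays between 5.92 and 6.48. In the order of the 10 groups every pair of neighbours overlapped.

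Cxcl15 (probe set 10523145, chromosome 5) was still well above its later level on day 3. The P0 arrays read 10.10, 10.28, 9.83 and 8.96 in KO and 8.31, 7.67, 9.40 and 7.31 in WT. On day 3 the level was nearly the same in the genotypes, with 8.56, 8.03 and 8.13 in KO and 8.16, 8.52 and 8.10 in WT. The KO groups at P0 and P3 did not overlap (-1.55), and the WT groups did (0.09). On day 7 the KO arrays read 6.67, 6.14, 6.08, 6.48 and 5.99, and the WT arrays 6.22, 6.26, 6.59 and 6.45. Between P3 and P7 the means differed by -1.97 in KO and -1.88 in WT glands with no overlap, a 3.92-fold and a 3.68-fold fall. At P10 and P15 KO arrays lay between 5.46 and 6.57 and WT arrays between 5.73 and 6.82.

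Itih2 (probe set 10480003, chromosome 2) was still high on day 3 in both genotypes. It read 9.22, 9.11, 10.20 and 9.67 in KO and 8.45, 9.50, 7.70 and 9.01 in WT glands at P0, and 9.38, 9.47 and 8.98 in KO and 9.05, 10.07 and 8.51 in WT glands at P3. These stages overlapped in both genotypes, with P3 minus P0 at -0.27 in KO and 0.55 in WT. On day 7 the KO arrays were spread over 6.78, 7.73, 6.39, 7.58 and 6.09, and the WT arrays read 6.29, 6.80, 6.87 and 6.33. The level at P7 was 19.4% of that at P3 in KO glands (-2.36) and 16.1% in WT glands (-2.64). A further step followed to P10 without overlap, of -1.39 in KO and -0.62 in WT, to arrays of 5.70, 5.47 and 5.41 in KO and 6.02, 5.93 and 5.92 in WT. Between P10 and P15 the WT groups differed again without overlap (-0.51) and the KO groups overlapped (0.06). At P15 the means were 5.59 ± 0.22 in KO and 5.45 ± 0.29 in WT (SD, n = 4 each).

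**Figure D1:**
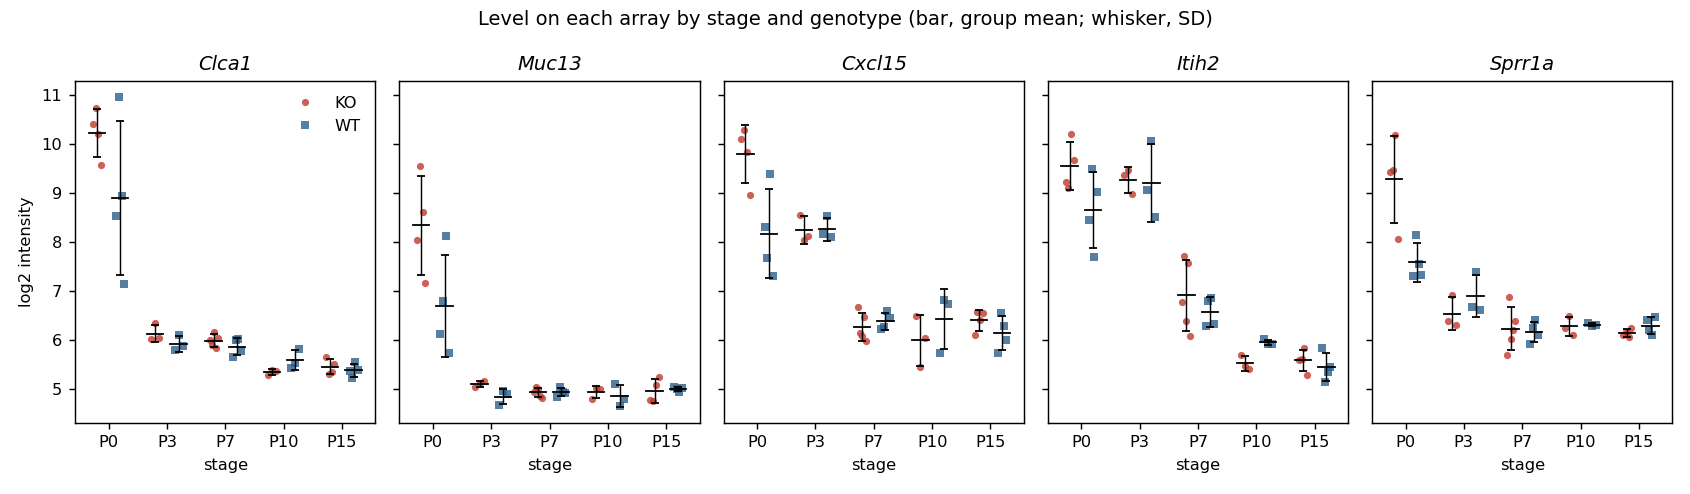
Log2 intensity (y axis) of the 5 genes on each of the 37 arrays by stage (x axis), KO as red circles left of WT as blue squares, with the group mean (bar) and SD (whisker). Clca1 and Muc13 are low from P3 on, Cxcl15 and Itih2 are still high at P3, and the P0 arrays of Clca1 and Muc13 spread more widely than the later ones.

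The 5 genes thus fall into different courses within pregnancy, and the genes were not chosen by differences between pregnancy days. Any difference among P3, P7, P10 and P15 was tested in limma across the 16865 genes and 37 arrays, with an adjusted p below 0.05 as the call. Itih2 (F = 43.3 in KO, adjusted p = 5.70e-09, and 39.8 in WT, adjusted p = 8.39e-09) and Cxcl15 (F = 16.4 in KO, adjusted p = 1.74e-05, and 15.2 in WT, adjusted p = 2.80e-05) were called in both genotypes. Clca1, Muc13 and Sprr1a were called in neither, which does not show a flat course. The spread of Clca1 in this fit takes in P0, with an SD of 1.58 in WT P0 against 0.06 to 0.20 in pregnancy groups. In KO its arrays ran from 6.02 to 6.34 at P3 and from 5.31 to 5.65 at P15, without overlap. In WT they ran from 5.79 to 6.11 and from 5.22 to 5.55, also without overlap. The P3 and P15 arrays of Sprr1a did not overlap in either genotype, while those of Muc13 did. The main fit called 57.6% of all genes in KO and 49.8% in WT glands by this test, so 2 of 5 is no larger a share than among all genes. In other fits the test called Clca1 in KO, with array weights (adjusted p = 0.00353) or without WT P0 replicate 2 (adjusted p = 0.0132). It called Sprr1a in WT with array weights (adjusted p = 0.0335) or without KO P0 replicate 4 (adjusted p = 0.0413). Day 15 minus day 3 gave -3.69 ± 0.36 in KO (adjusted p = 3.93e-09) and -3.76 ± 0.36 in WT (adjusted p = 2.13e-09) for Itih2 (SE). For Cxcl15 it gave -1.84 ± 0.34 in KO (adjusted p = 9.60e-05) and -2.12 ± 0.34 in WT (adjusted p = 1.04e-05). The other 3 genes lay between -0.68 and -0.15 in KO and between -0.60 and 0.15 in WT and were not called, while 34.8% of all genes were called in KO and 40.1% in WT glands, near the share of these 5. Clca1 was called in KO glands without WT P0 replicate 2 (-0.68, adjusted p = 0.0299), and Sprr1a in WT glands without KO P0 replicate 4 (-0.60, adjusted p = 0.0352). Both arrays lie outside the contrast they move and enter it through the spread that the fit shares over all groups. Other settings made calls as well. Clca1 was called in KO with a pan-epithelial score (-1.12, adjusted p = 0.0295), lymphocyte and muscle scores (-1.08, adjusted p = 0.0404) or array weights (-0.81, adjusted p = 0.00689). Sprr1a was called in WT after quantile normalisation (-0.73, adjusted p = 0.0413) or with array weights (-0.69, adjusted p = 0.035). With array weights it was also called in KO (-0.64, adjusted p = 0.0244).

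**Figure D2:**
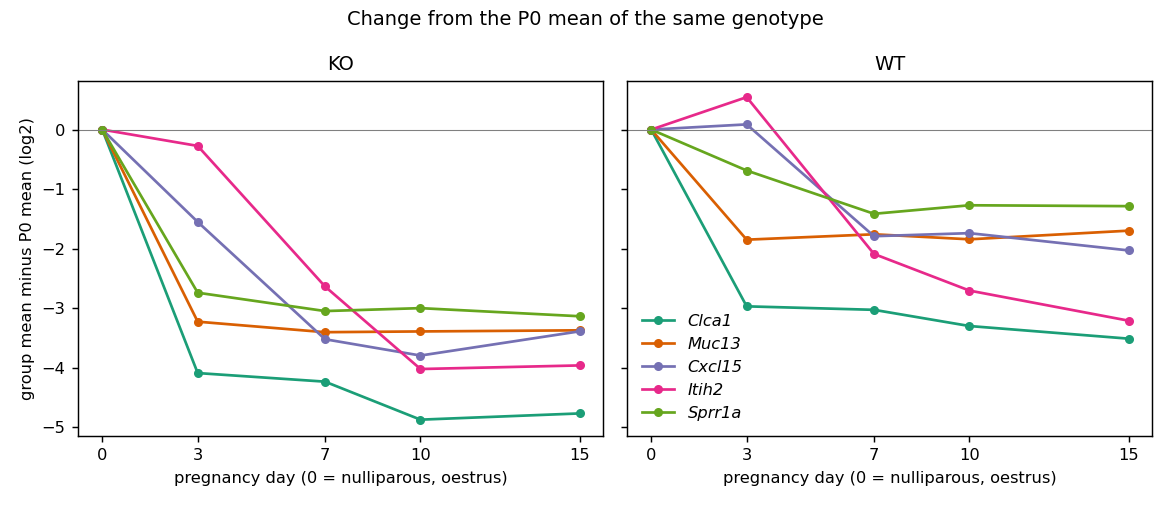
Group mean minus the P0 mean of the same genotype (y axis, log2) by pregnancy day (x axis), KO left and WT right, with 1 line for each gene. Clca1 and Muc13 make most of their fall by day 3, Cxcl15 and Itih2 between days 3 and 10.

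At P0 Sprr1a, Muc13 and Cxcl15 were higher in KO than in WT glands. The rule that chose the genes does not name a genotype, but this comparison uses the same P0 arrays as the falls, so it is not independent of the choice. Sprr1a averaged 9.29 ± 0.89 in KO and 7.59 ± 0.39 in WT (SD, n = 4 each), a difference of 1.70 ± 0.28 (SE) or 3.25-fold (limma adjusted p = 0.00122). Cxcl15 averaged 9.79 ± 0.59 in KO and 8.17 ± 0.92 in WT, a difference of 1.62 ± 0.32 or 3.08-fold (limma adjusted p = 0.00834). Muc13 averaged 8.34 ± 1.0 in KO and 6.70 ± 1.04 in WT, a difference of 1.64 ± 0.33 or 3.12-fold (limma adjusted p = 0.0101). Clca1 (1.33 ± 0.38, limma adjusted p = 0.0627) and Itih2 (0.89 ± 0.34, limma adjusted p = 0.144) were not called. For each of the 5 genes all 4 KO arrays lay above the WT median and the 2 groups overlapped. Of all tested genes 1.27% were called higher in KO glands at P0. Nothing is read from 3 of 5 against that share, since genes with large falls lean the same way: the 10 largest falls of all genes had KO minus WT differences at P0 between 0.15 and 2.33.

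The arrays behind these differences varied from gene to gene. KO replicate 4 was the lowest KO array for Clca1, Muc13, Cxcl15 and Sprr1a and the second highest for Itih2. Among WT arrays, replicate 2 was highest for Clca1, Itih2 and Sprr1a, and replicate 3 was highest for Muc13 and Cxcl15 and lowest for Itih2. The muscle-rich WT replicate 4 was lowest for Clca1, Muc13 and Cxcl15. Muc13 was no longer called without WT replicate 1 (1.45, adjusted p = 0.0557), WT replicate 4 (1.32, adjusted p = 0.0651) or KO replicate 2 (1.24, adjusted p = 0.0573), and Cxcl15 not without WT replicate 4 (1.33, adjusted p = 0.0511). Clca1 was called without WT replicate 2 (2.02, adjusted p = 7.01e-05) or KO replicate 4 (1.55, adjusted p = 0.0473), and Itih2 without WT replicate 2 (1.16, adjusted p = 0.0289). Sprr1a was called with any 1 of the 37 arrays left out, with an adjusted p of at most 0.0102. Without the 7 arrays Sprr1a was still called at P0 (1.61, adjusted p = 0.0215), and Muc13 (1.32, adjusted p = 0.0949) and Cxcl15 (1.33, adjusted p = 0.0552) were not.

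The P0 calls rest on a spread estimated over all 10 groups. For Clca1 and Muc13 the SD of both P0 groups was larger than that of every later group, while for Itih2, Sprr1a and Cxcl15 at least 1 later group spread as widely as 1 of the P0 groups. In a fit of the 8 P0 arrays alone the adjusted p was 0.301 for Sprr1a, 0.317 for Cxcl15 and 0.356 for Muc13, and 2 of all 16865 genes passed. A two-sided exact permutation test of the 8 P0 arrays, unadjusted over the 5 genes, gave p = 0.0571 for Sprr1a and Cxcl15, 0.0857 for Muc13, 0.114 for Itih2 and 0.171 for Clca1, where 4 arrays against 4 cannot go below 0.0286.

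The level of pan-epithelial markers varied between the P0 arrays. The mean centred log2 level of 12 pan-epithelial markers was -0.29, 0.44, 0.16 and 0.33 in KO replicates 1 to 4 and -0.83, 0.47, -0.55 and -0.46 in WT replicates 1 to 4. The KO arrays were thus mostly higher, with WT replicate 2 the highest of the 8. With this score in the fit the KO minus WT difference was 1.59 for Sprr1a (adjusted p = 0.0114), 1.67 for Cxcl15 (adjusted p = 0.0266), 1.58 for Muc13 (adjusted p = 0.0449), 0.82 for Clca1 (adjusted p = 0.308) and 0.76 for Itih2 (adjusted p = 0.354). None of the 12 markers was itself called between genotypes at P0.

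**Figure D3:**
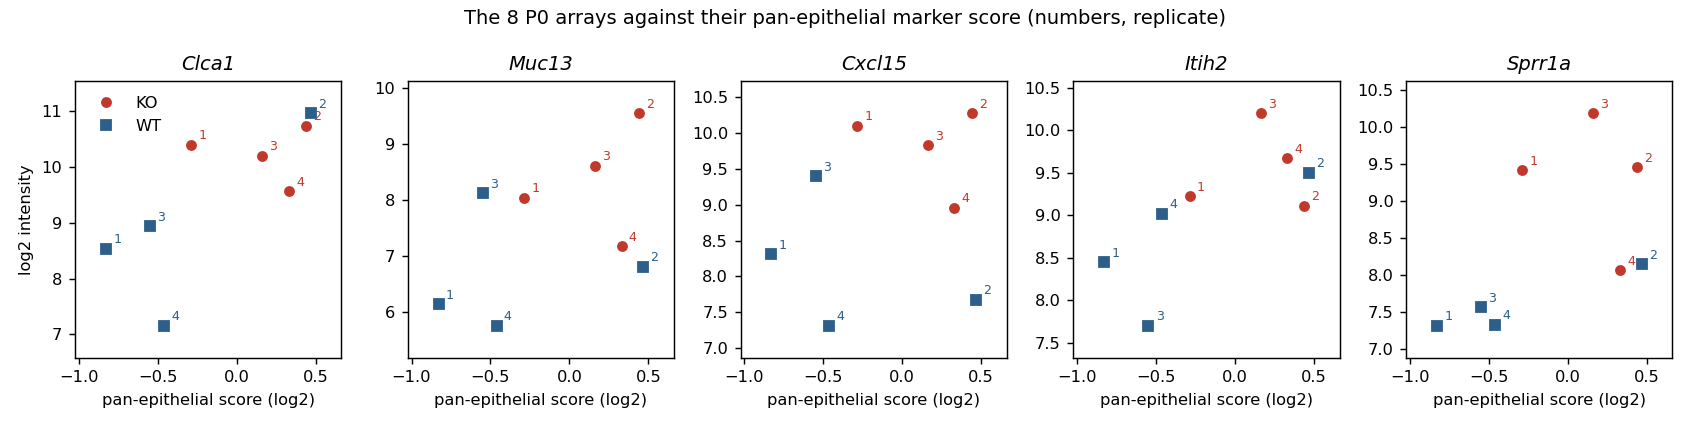
Log2 intensity of each gene (y axis, its own scale in each panel) against the pan-epithelial marker score (x axis, mean centred log2) on the 4 KO (red circles) and 4 WT (blue squares) P0 arrays, numbered by replicate. WT replicate 2, with a score of 0.47, lies at the KO level for Clca1 and below all KO arrays for Cxcl15.

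No genotype difference was called at these genes in pregnancy. None of the 5 was called by limma at P3, P7, P10 or P15, where 0.119%, 0.00593%, 17.2% and 11.1% of all genes were, and in that fit 0 of 5 had an unadjusted p below 0.05 at any of these stages. KO minus WT lay between -0.35 and 0.26 at P3, -0.11 and 0.34 at P7, -0.44 and 0.09 at P10, and -0.15 and 0.26 at P15. Groups did not overlap for Muc13 at P3 (higher in KO) and for Clca1 and Itih2 at P10 (lower in KO), each with a two-sided exact permutation p of 0.1, the smallest that 3 arrays against 3 allow. The share of all genes without overlap at these stages is not given here, so nothing is read from these cases. Of the 3 KO P10 arrays 2 were lymphocyte-rich, and with lymphocyte and muscle scores in the fit the P10 difference of Itih2 was 0.08 in place of -0.43. KO P10 replicate 1, which was not lymphocyte-rich, also read below every WT P10 array. It read 5.70 for Itih2, where the lowest WT array read 5.92, and 5.28 for Clca1, where the lowest read 5.44. The part of lymphocytes in these differences was not tested. The SE at these stages comes from the spread shared over all groups, for Clca1 at P3 0.44 against 0.13 in a fit of the P3 arrays alone. Fits of single stages also called 0 of 5 at P3, P7, P10 and P15. Over all genes the fits of P3, P7 and P10 alone called 1, 2 and 1, so nothing is read from 0 of 5 there. At P15 every alternative called at least 1753 genes. In the fits of single stages the unadjusted limma p was 0.00505 for Itih2 at P10 (adjusted p = 0.184) and 0.0443 for Muc13 at P3 (adjusted p = 0.987). It was above 0.05 for the others at these 4 stages. In the mean over the 5 stages 0 of 5 were called and Muc13 had an unadjusted limma p below 0.05 (0.39 ± 0.16, adjusted p = 0.171), while 2.43% of all genes were called.

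Whether the genotype difference changed between stages was tested with an F test in the same fit. The test sets the falls in KO against those in WT, on the values that chose the genes, so its results are not independent of the choice. It was called for Sprr1a (F = 8.67, adjusted p = 0.00398), Cxcl15 (F = 6.02, adjusted p = 0.0146) and Muc13 (F = 4.46, adjusted p = 0.0387), and not for Clca1 (adjusted p = 0.186) or Itih2 (adjusted p = 0.292). Of all genes 18.0% were called. With the 7 arrays in doubt left out 0 of the 5 were called, the adjusted p being 0.0675 for Sprr1a, 0.187 for Cxcl15 and 0.288 for Muc13. Muc13 was also lost in 13 of 37 fits that left out 1 array, with WT P0 replicate 4 giving the highest value (adjusted p = 0.121), and Clca1 was called without WT P0 replicate 2 (adjusted p = 0.00059).

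**Figure D4:**
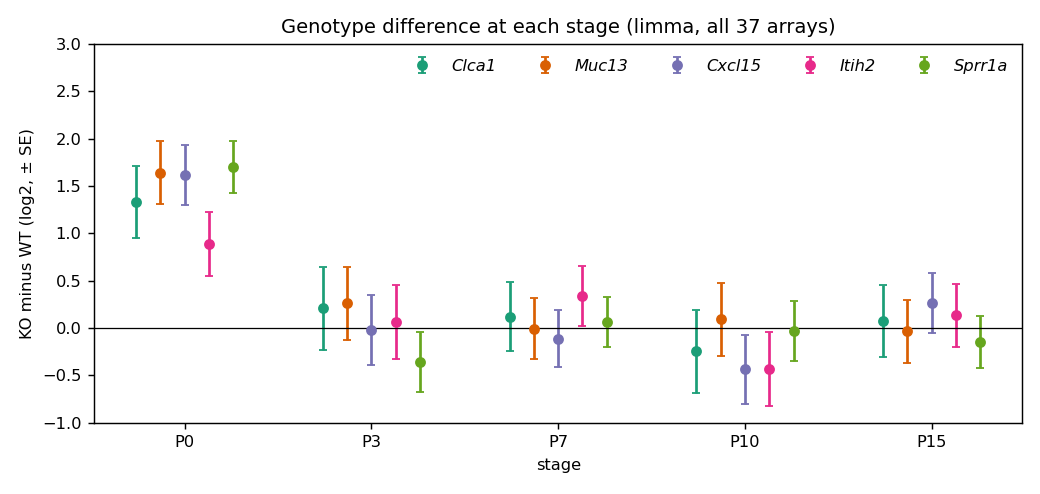
KO minus WT difference (y axis, log2, points) with its limma SE (bars) for the 5 genes at each stage (x axis). The differences at P0 run from 0.89 to 1.70, and those at P3 to P15 from -0.44 to 0.34.

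Markers of other cell types in which the 5 genes are known were measured on the same arrays, with those of the gland's own cells. Over the 10 groups the mean score of 10 intestinal epithelium markers stayed between -0.07 and 0.14, that of 10 airway secretory markers between -0.08 and 0.08, and that of 9 skin keratinocyte markers between -0.12 and 0.18. The airway markers Scgb1a1, Scgb3a2, Bpifa1 and Sftpc, the intestinal markers Fabp2 and Reg4 and the skin markers Flg2, Krtdap and Lce1a1 were below the filter on all 37 arrays. Of 6 airway markers tested 0 rose and 1 fell in KO pregnancy, and 0 rose and 3 fell in WT. Of 8 intestinal markers tested 1 rose and 1 fell in KO, and 0 rose and 3 fell in WT. Of 5 skin markers tested 1 rose and 1 fell in each genotype. The hormone-sensing luminal markers, 7 with a probe set, scored 0.70, 0.48, 0.24, -0.76 and -0.81 from P0 to P15 in KO and 0.52, 0.38, 0.23, -0.22 and -0.84 in WT glands. Of these 7 markers, all tested, 1 rose and 5 fell in pregnancy in each genotype. The decline of the score was steepest between P7 and P10 in KO and between P10 and P15 in WT glands, and 2 of the 3 KO P10 arrays were lymphocyte-rich. The score joins markers of different courses. From P0 to P3 Pgr moved from 9.03 to 7.65 in KO and from 8.17 to 7.50 in WT. Cited1 moved from 9.30 to 10.04 in KO and from 9.23 to 9.97 in WT. Of 10 liver markers with a probe set, Ttr was below the filter on all arrays, and 3 of the 9 tested fell in KO and 6 in WT pregnancy. Their mean score was 0.25, 0.24, -0.04, -0.28 and -0.22 from P0 to P15 in KO and 0.29, 0.27, 0.01, -0.20 and -0.30 in WT, high at P0 and P3 as Itih2 was, a gene known from liver. Of 10 neutrophil markers with a probe set 8 were tested, and Ly6g was below the filter on all arrays. Their mean score was 0.33, -0.14, -0.20, 0.99 and -0.30 from P0 to P15 in KO. In WT it was 0.12, -0.23, -0.21, 0.07 and -0.21. At P0 the arrays of the genotypes overlapped, from -0.11 to 0.58 in KO and from 0.03 to 0.27 in WT. Of 10 white adipocyte markers 0 rose and 7 fell in KO and 0 rose and 9 fell in WT pregnancy, with a mean score of 0.25 at P0 and -0.49 at P15 in KO and of 0.38 at P0 and -0.76 at P15 in WT. Of 12 pan-epithelial markers 1 rose and 5 fell in KO, and 6 rose and 1 fell in WT, and of 10 myoepithelial markers 0 rose and 2 fell in KO, and 6 rose and 0 fell in WT. The part of these marker levels in the falls was not tested.

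Among relatives of Clca1 and Muc13, several membrane mucins rose in pregnancy. Of 4 tested CLCA genes 1 rose and 1 fell in KO, and 1 rose and 0 fell in WT. Clca2, found in squamous and basal epithelia, rose in pregnancy by 0.72 ± 0.14 in KO (adjusted p = 0.000266) and 0.80 ± 0.14 in WT (adjusted p = 9.03e-05), counted as the mean of P3 to P15 minus P0. Among all genes this comparison called 12.9% higher and 16.7% lower in KO and 19.6% higher and 20.3% lower in WT glands. Clca3b, named after its value was seen, fell by 0.24 in KO and was at -0.10 in WT, not called. Of 14 tested mucin and goblet cell genes, 4 rose and 1 fell in KO, and 4 rose and 4 fell in WT. Muc4 (1.64 in KO and 1.37 in WT), Muc15 (1.26 in KO and 1.91 in WT), Muc1 (0.88 in KO and 1.29 in WT) and Muc20 (0.82 in KO and 1.01 in WT), all membrane-associated mucins, were called in both. The secreted goblet cell mucin Muc2 was at 0.09 in KO and -0.07 in WT and was not called. Agr2 fell in both genotypes (-0.73 in KO and -0.40 in WT). Muc5ac (-0.29), Spdef (-0.23) and Muc5b (-0.19) fell in WT and were not called in KO. Muc2 and these 4 genes were named after their values were seen. At P0 0 of the 14 were called higher in KO and 1 lower, Muc5ac (-0.33 ± 0.07, adjusted p = 0.0221), named after its value was seen, and 0 of the 4 CLCA genes were called.

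Of 12 tested genes of the inhibitor family and of hyaluronan metabolism, 0 rose and 5 fell in KO, and 3 rose and 2 fell in WT. Tnfaip6, the enzyme that transfers heavy chains to hyaluronan, was lower in pregnancy in KO (-1.02 ± 0.16, adjusted p = 1.21e-05) and higher in WT (0.51 ± 0.16, adjusted p = 0.0106). Has2, a hyaluronan synthase, was at -0.28 in KO, not called, and 1.64 in WT, and Vcan, the matrix proteoglycan versican, at -0.91 in KO and 0.73 in WT. Itih4, another gene of the family, was at -0.33 in KO, not called, and fell in WT (-1.18). Itih5 fell in both genotypes (-0.83 in KO and -0.51 in WT), and Itih1, Itih3 and Ambp were called in neither. These last genes, from Itih5 on, were named after their values were seen. At P0 2 of the 12 were called higher in KO, Tnfaip6 (1.18 ± 0.19, adjusted p = 0.00137) and Has2 (1.39 ± 0.22, adjusted p = 0.00122).

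Of 6 tested chemokines and receptors related to Cxcl15, 0 rose and 1 fell in KO, and 0 rose and 4 fell in WT. The 4 were the platelet chemokine Ppbp (-0.04 in KO and -1.07 in WT), Cxcl2 (-0.003 in KO and -0.35 in WT), Cxcl1 (0.04 in KO and -0.26 in WT) and the receptor Cxcr1 (-0.004 in KO and -0.23 in WT), none of them called in KO, and 0 of the 6 were called between genotypes at P0. The 1 that fell in KO, named after its value was seen, was Pf4 (-0.93, adjusted p = 0.000194). In WT Pf4 was at -0.33, not called. Of 8 tested cornified envelope genes besides Sprr1a, 0 rose and 3 fell in each genotype, and 3 were called higher in KO at P0. The 3 in WT were Sprr1b (-0.23 in KO and -0.44 in WT), Tgm3 (-0.06 in KO and -0.41 in WT) and Sprr4 (-0.09 in KO and -0.18 in WT), none of them called in KO. The 3 higher in KO at P0, named after their values were seen, were Sprr2f (1.43 ± 0.20), of a family of close copies whose probes may not be told apart, the transglutaminase Tgm1 (1.19 ± 0.23) and the envelope precursor involucrin, Ivl (0.69 ± 0.17). The same 3 were those that fell in KO, Sprr2f by -1.59 (adjusted p = 8.98e-09), Tgm1 by -0.76 (adjusted p = 0.00231) and Ivl by -0.73 (adjusted p = 0.000101). In WT they were at -0.07, 0.18 and -0.08, not called.

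Of 13 tested genes of the oestrogen receptor and its targets, 0 rose and 7 fell in KO, and 1 rose and 3 fell in WT. The receptor itself, Esr1, was at -0.63 in KO and -0.62 in WT, the progesterone receptor Pgr at -1.90 in KO and -0.89 in WT, and the pioneer factor Foxa1 at -1.86 in KO and -1.61 in WT, all called. Car12, a carbonic anhydrase, was at -0.05 in KO, not called, and rose in WT (0.60). At P0 1 of the 13 was called higher in KO and 0 lower, the transcription factor Myb (0.95 ± 0.20, adjusted p = 0.0104), named after its value was seen. The pregnancy change of these relatives was not tested between the genotypes.

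**Figure D5:**
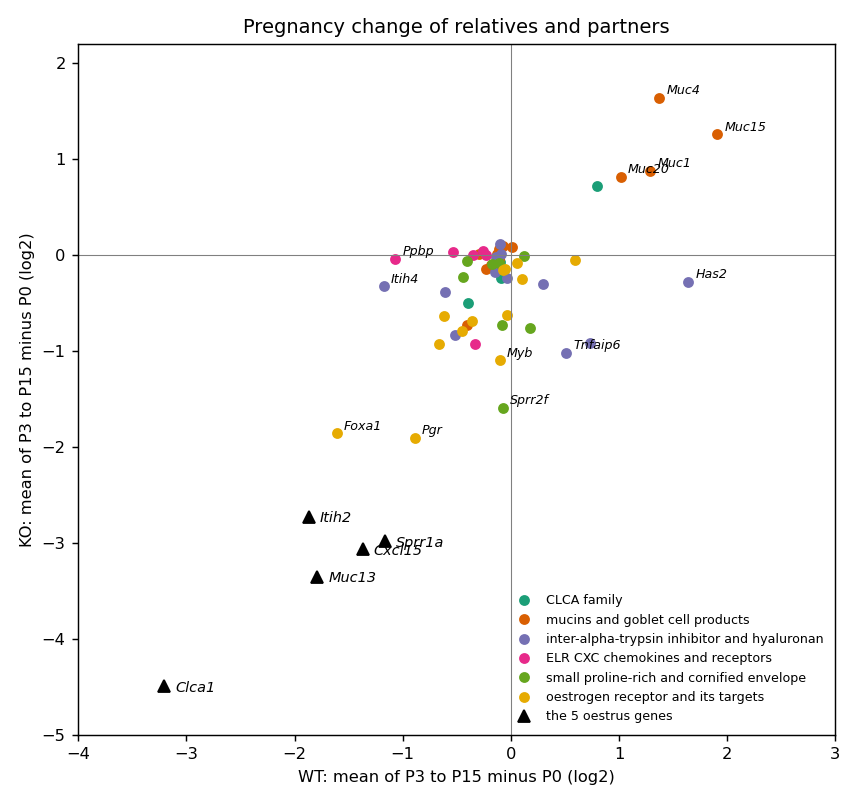
Mean of P3 to P15 minus P0 on the log2 scale in KO (y axis) against WT (x axis) for the 57 tested genes of the 6 lists (circles, coloured by list) and the 5 oestrus genes (black triangles, chosen by these values). The mucins Muc1, Muc4, Muc15 and Muc20 lie at the upper right, and Pgr and Foxa1 are nearest to the triangles.

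The genes whose profile over the 37 arrays was most like the mean of the 5, by Pearson's r, were Tspan1 (0.940), Prom1 (0.936), Mboat1 (0.936), Sgms2 (0.931), Kif5c (0.928), Clic6 (0.921), R3hdml (0.917), Gipc2 (0.917), Tox2 (0.915) and Cyp3a57 (0.912). Over the 10 group means the values ran from 0.928 for R3hdml to 0.992 for Cyp3a57. Prom1 encodes prominin, a surface marker of hormone-sensing luminal cells. For single genes the closest were Ido1 for Clca1 (0.964), Ern1 for Muc13 (0.961), Stc2 for Cxcl15 (0.926), Msx2 for Itih2 (0.953) and Grm8 for Sprr1a (0.935). The 37 arrays fall into the same 10 groups for every gene, so genes with a fall after P0 can score high.

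The 10 largest falls of all tested genes, by the mean of P3 to P15 minus P0 averaged over both genotypes, were those of Ido1, Clca1, Gm4847, Pate6, Cdcp3, Aoc1, Muc13, Clic6, Ang5 and Cyp3a57. Ido1, the tryptophan-degrading dioxygenase, stood first at -5.68 in KO and -4.56 in WT. Clca1 was at -4.49 in KO and -3.20 in WT, Muc13 at -3.35 in KO and -1.79 in WT, and Itih2 at -2.73 in KO and -1.87 in WT. Cxcl15 was at -3.07 in KO and -1.37 in WT, and Sprr1a at -2.98 in KO and -1.17 in WT. Falls of this kind chose the genes, so these values are a description.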

How the data were processed

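The deposited table holds log2 intensities of 34760 probe sets on 37 arrays, between 2.10 and 13.71, made by the authors with affy, per the submitters' processing notes. How background was corrected and arrays were summarised and normalised is not given in the sources used here, and the labels name no batch or date. Array medians ran from 6.52 to 6.79, and the number of arrays in a group limits the precision. Genes were named through the platform annotation and RefSeq (GRCm38.p6, 19855 of 19937 symbols matched), with 1 probe set per gene, the one with the highest mean. One limma 3.58.1 fit (R 4.3.3) held all 37 arrays with 1 mean per group and 1 spread per gene, and p values were two-sided and Benjamini-Hochberg adjusted over the 16865 genes of each contrast, with a threshold of 0.05 for a call. An adjusted p without another tool named is from limma. The fit was tested on simulated data.

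A marker score averages a list's log2 values after each gene was centred over all 37 arrays. Named were the 5 genes, the 10 largest falls, the genes most alike by Pearson's r (10 for the mean, and 3 per gene, of which the closest is given), Ptpn1, and up to 4 genes per list with the largest called change in WT, with exceptions stated. The 5 genes and all lists were chosen with earlier results of these data known. Alternatives were no filter, all probe sets, quantile normalisation, median centring, a trended robust prior, array weights, a replicate block, marker scores as covariates, arrays in doubt left out, single stages alone and each array left out in turn. The exact permutation test was added after seeing the data.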

Additional observations from a re-analysis of the deposited data

Results flagged for a closer look

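The genotype difference varied between stages, by an F test in the limma fit, for Sprr1a (adjusted p = 0.00398), Cxcl15 (adjusted p = 0.0146) and Muc13 (adjusted p = 0.0387). In each of the 3 the KO minus WT difference was largest at P0, at 1.70 for Sprr1a, 1.62 for Cxcl15 and 1.64 for Muc13, and lay between -0.44 and 0.26 at P3 to P15. This test runs on the P0 and pregnancy values that chose the genes, so it is not independent of the choice. Without the 7 arrays in doubt the adjusted p was 0.0675 for Sprr1a, 0.187 for Cxcl15 and 0.288 for Muc13.

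Ptpn1, the gene knocked out, read 8.68 on the array labelled KO P15 replicate 3, far from the other 3 KO P15 arrays, with a gap of 0.896 of the group's range. On that array Clca1 read 5.35, Muc13 5.08, Cxcl15 6.40, Itih2 5.83 and Sprr1a 6.07, against group means of 5.46, 4.97, 6.40, 5.59 and 6.15. No array of the 5 genes stood apart in this way in the 30 gene and group combinations of 4 or 5 arrays examined, where chance alone gives about 1 in 20.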

How the results depend on the processing

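No call of the 5 genes reversed under any alternative. At P0 3 of the 5 were called higher in KO glands, and 5 were with array weights, 1 with the 7 arrays in doubt left out and 0 in a fit of the P0 arrays alone. With 1 array left out the count ran from 1 (without WT P0 replicate 4) to 5 (without WT P0 replicate 2). For the F test of the genotype difference between stages, 3 were called, and 5 were with array weights, 1 with lymphocyte and muscle scores as covariates and 0 without the arrays in doubt. At P10 1 was called with array weights, against 0. In the mean over stages 2 were called with array weights and 0 to 1 with an array left out, against 0. For P15 minus P3 in KO 4 were called with array weights, against 2. Why these counts moved was not tested, except that the fit of P0 alone has fewer arrays. Over all genes the P0 count was 286, with 2 for P0 alone, 104 without the arrays in doubt, 112 with the pan-epithelial score, 175 after quantile normalisation, 439 after median centring and 1103 with array weights, and 69 to 1811 with an array left out. The F test called 3042 genes, and from 492 without the arrays in doubt to 7877 with array weights (1540 to 4939 with an array left out). At P10 2905 were called, and from 0 with lymphocyte and muscle scores to 7340 with array weights (841 to 4872 with an array left out). At P3 20 were called, and 1 to 28 (0 to 114 with an array left out). At P15 1873 were called, and up to 4081 with all probe sets. The mean over stages called 410, from 59 without the arrays in doubt to 3091 with array weights (156 to 1831 with an array left out). Testing all 34760 probe sets in place of 1 per gene gave 10 calls at P3 in place of 20 and also fewer at P0, while other counts were higher, moving to 11520 from 6768 for P15 minus P3 in WT, to 15068 from 8399 for the pregnancy days in WT, and to 8165 from 4980 in KO and 10789 from 6733 in WT for pregnancy minus P0. Replicate numbers were not used as pairs in the main fit. Of 18 pairs 9 correlated above 0.1 (range -0.525 to 0.384), and 8 were best with their own number. At P0 the pairs ran from 0.08 to 0.25. These values do not settle whether the numbers pair the samples. With the replicate block 3 of the 5 were again called at P0, and 257 genes in all. Of 100 group levels under another scaling, 92 moved by less than 1 SD, the largest by 0.171, and 32 uncalled differences turned sign. Muc13 in pregnancy lay near the filter value, so changes there are limited by a dim signal.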
